A study of Mus musculus with 4 samples.

Results

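Conventional natural killer (NK) cells were examined in single-cell RNA sequencing libraries of mouse liver. The cells were chosen by their own UMI counts (a UMI is a distinct captured molecule), and a barcode was taken as a conventional NK cell when it held at least 1 UMI of Ncr1, at most 1 UMI of Cd3d, Cd3e and Cd3g together, at least 1 UMI of Eomes and Klra8 together, no UMI of Cd79a or Cd79b, and at most 3 UMIs of C1qa, C1qb and C1qc together. The rule rests on measured values, so the genes it uses are described here and not tested. It selected 304 cells of 31290 barcodes, which were those with 500 or more genes detected and no more than 20% of UMIs from mitochondrial genes. There were 7 such cells in NCD, 135 in HFD replicate 1, 71 in HFD replicate 2 and 91 in JQF.

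All livers came from male C57BL/6J mice, bought at 5 weeks of age and kept for 1 week before the diets began. The normal chow diet (NCD) group was fed chow throughout, and the high-fat diet (HFD) and Jiangtang Qingre Formula (JQF) groups received a diet with 60% fat for 14 weeks. During a further 8 weeks the NCD and HFD groups were gavaged daily with distilled water and the JQF group with the formula, a multi-herb preparation. There was 1 NCD library, 2 HFD libraries and 1 JQF library, so only HFD had a replicate, and nothing in the labels describes the 2 HFD samples beyond their numbers. Effects of diet or formula and differences between single animals or preparations therefore cannot be told apart. The labels name the samples as immune cells of a hematopoietic stem cell line, whereas the suspensions held the cell types of a digested liver.

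NK cells are innate lymphocytes that kill infected or transformed cells without prior sensitisation. Their granules hold perforin, which opens the target membrane, and granzymes, proteases that start cell death, while chemokines and interferon-gamma are made on activation. Inhibitory Ly49 receptors (Klra genes) and NKG2A bind MHC class I and restrain killing, activating receptors oppose them, and the balance sets the response. The mouse liver also holds type 1 innate lymphoid cells (ILC1), which share Ncr1 and Klrb1c with NK cells but reside in the tissue, carry Cxcr6 and Itga1 (CD49a), and lack Eomes. Immediate early genes such as Fos, Jun and Nr4a family members are transcribed within minutes of receptor signalling, and also when cells are stressed by tissue digestion.

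The kept barcodes had a median of 13081 UMIs in NCD and 7608 to 8884 UMIs in the other libraries, and UMIs outside called barcodes made up 6.68% to 10.5% of each library. Pairs of libraries shared 14 to 30 called barcodes, and no NK cell barcode was shared between any pair (0 in each). The NK cells themselves had median depths of 10810 UMIs for NCD, 7789 and 5372 UMIs for the HFD pair and 7069 UMIs for JQF. Summed over cells, they held 124716, 1227154, 477819 and 821682 UMIs in the same order. Some gated cells carried transcripts of another lineage. One of the 7 NCD cells held 55552 UMIs, 44.5% of all NK UMIs of that library, with 726 UMIs of endothelial markers, and was a predicted doublet. One JQF cell held 104872 UMIs, 12.8% of that library's NK UMIs, with 743 UMIs of hepatocyte markers. At least 20 UMIs of a B cell, macrophage, dendritic cell, neutrophil, hepatocyte or endothelial list were found in 1 NCD cell, 17 and 3 HFD cells and 6 JQF cells. Each comparison is therefore also given without these cells, an alternative chosen after seeing the data that left 6, 118, 68 and 85 NK cells.

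Because the genes that rose in JQF NK cells included transcription factors made on activation, the 250 bases before the transcription start of 4 of them are shown first, from RefSeq on GRCm38.p6 and on the strand of the gene. They are Nr4a2 (chr2:57124004-57124253, minus strand), Fosb (chr7:19310046-19310295, minus strand), Junb (chr8:84978749-84978998, minus strand) and Jun (chr4:95052223-95052472, minus strand). Capitals mark TGACG, a part of the full cAMP response element TGACGTCA, on either strand, which reads CGTCA when it lies on the opposite strand.
Nr4a2: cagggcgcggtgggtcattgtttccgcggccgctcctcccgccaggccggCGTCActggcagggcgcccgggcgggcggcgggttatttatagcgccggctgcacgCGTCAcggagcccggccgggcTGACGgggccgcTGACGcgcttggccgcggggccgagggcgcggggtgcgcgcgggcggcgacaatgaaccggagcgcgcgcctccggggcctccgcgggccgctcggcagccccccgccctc
Fosb: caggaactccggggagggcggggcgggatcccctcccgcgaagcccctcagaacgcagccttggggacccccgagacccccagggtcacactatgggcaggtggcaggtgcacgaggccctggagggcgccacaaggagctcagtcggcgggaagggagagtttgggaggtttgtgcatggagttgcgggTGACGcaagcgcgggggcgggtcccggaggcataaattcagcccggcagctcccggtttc
Junb: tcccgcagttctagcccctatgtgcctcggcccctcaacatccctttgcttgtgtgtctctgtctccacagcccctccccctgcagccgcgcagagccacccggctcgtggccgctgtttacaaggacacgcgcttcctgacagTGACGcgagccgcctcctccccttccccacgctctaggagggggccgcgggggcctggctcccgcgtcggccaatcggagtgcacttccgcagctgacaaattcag
Jun: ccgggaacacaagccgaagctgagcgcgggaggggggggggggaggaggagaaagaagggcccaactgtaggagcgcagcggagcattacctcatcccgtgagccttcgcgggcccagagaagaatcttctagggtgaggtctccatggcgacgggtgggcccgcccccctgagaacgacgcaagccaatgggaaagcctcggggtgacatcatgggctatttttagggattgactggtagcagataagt
The Nr4a2 stretch held 4 copies of TGACG, Fosb and Junb held 1 each, and Jun held 0. Of the 9 named genes that rose in JQF, 7 had an entry in the promoter table, and 4 of these 7 held TGACG, against 17.8% of all 32851 stretches of this length. The 7-letter form TGANTCA of the AP-1 site, searched on both strands, was in 0 of the 7 and in 6.75% of all stretches. Forms of the site with other letters or lengths were not searched. These matches describe letters in a window and say nothing of binding.

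The gate first had to be set against markers it did not use. Klrb1c, which encodes the activating receptor NK1.1, was detected in 7 of 7 NCD cells, in 94.8% and 94.4% of HFD cells and in 90.1% of JQF cells without thinning. With each cell thinned to 2000 UMIs the shares were 57.1%, 67.7%, 75% and 57.1%, and in B cells of the same libraries they were at most 0.570%. Gzma, a granzyme, was found after thinning in 71.4% of NCD cells (95% exact interval 29.0 to 96.3), in 66.2% (57.5 to 74.1) and 88.2% (78.1 to 94.8) of HFD cells and in 83.5% (74.3 to 90.5) of JQF cells, against at most 0.716% of B cells. Without thinning the Gzma shares were 85.7%, 71.1%, 88.7% and 87.9%. B cells had median depths of 8716, 5715, 5979 and 7232 UMIs in NCD, HFD replicates 1 and 2 and JQF. Both markers were thus detected in NK cells at shares far above those of B cells in every library. This sets the gate against B cells only. The T cell list, 11 genes, had a summed level of 409 to 735 counts per 1000000 UMIs of the summed cells (CPM) in NK cells and 2700 to 3824 CPM in T cells. Most of the NK sum came from the T cell receptor beta constant genes Trbc1 (239 to 353 CPM) and Trbc2 (32.1 to 228 CPM) and from the co-receptor gene Cd28 (72.2 to 230 CPM). Trdc, the delta constant gene, was at 40.1 to 48.1 CPM in NK cells and 7.57 to 36.1 CPM in T cells, and Trac at 0 to 13.4 CPM against 304 to 518 CPM. The part of T cells in the NK values was not tested. Of the other members, Cd8b1 and Cd5 were at 0 in every library, as were Cd4, Cd8a and Cd6 in NCD and both HFD libraries. The B cell list stood at 56.1 to 148 CPM.

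The values on both sides of the gate's edge are given as a description. In HFD replicate 1 the activating Ly49 receptor Klra4 stood at 841 CPM in the 102 cells with at least 2 UMIs of Eomes and Klra8, at 185 CPM in the 33 cells with 1 UMI, and at 3.76 CPM in the 264 cells just outside with 0 UMIs. The same 3 steps gave 708, 289 and 58.1 CPM in HFD replicate 2 and 563, 174 and 36.7 CPM in JQF. Gzma stood at 3213, 858 and 220 CPM in the same 3 steps in HFD replicate 1, at 3682, 3560 and 889 CPM in HFD replicate 2, and at 3251, 1695 and 1603 CPM in JQF. For Gzma, cells with 1 UMI lay near those with more in HFD replicate 2, and near the cells outside in JQF. Klrb1c stood at 654, 585 and 631 CPM in the 3 steps in HFD replicate 1. It was at 771, 853 and 617 CPM in HFD replicate 2 and at 596, 320 and 503 CPM in JQF. The cells just outside thus carried Klrb1c too. Klra4 has near-identical relatives, among them the gate gene Klra8, so reads may be split between them. In NCD, 5 cells with at least 2 UMIs had Gzma at 5518 CPM, whereas 2 cells with 1 UMI had 75.3 CPM, and 1 of these 2 is the cell with endothelial markers. NK cells with 1 Cd3 UMI numbered 1, 9, 5 and 6 in NCD, HFD replicates 1 and 2 and JQF, and 1, 2, 1 and 2 cells lay just outside with 2.

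NK cells made up 0.117% of kept barcodes in NCD (95% exact interval 0.0471 to 0.241), 2.07% in HFD replicate 1 (1.74 to 2.45), 0.692% in HFD replicate 2 (0.541 to 0.872) and 1.07% in JQF (0.859 to 1.31). The HFD replicates differed from each other by more than JQF differed from either, and NCD lay below the other libraries. Among barcodes with a Ptprc (CD45) UMI the shares were 0.297%, 2.26%, 0.816% and 1.22%. The intervals cover counting error only, and no test was run since the gate defines the cells. Among Ncr1-positive cells low in Cd3, of which there were 52, 399, 174 and 211, NK cells were 13.5% in NCD (5.59 to 25.8), 33.8% (29.2 to 38.7) and 40.8% (33.4 to 48.5) in HFD and 43.1% (36.3 to 50.1) in JQF. The remaining Ncr1-positive cells were mostly ILC1-like, that is without an Eomes or Klra8 UMI and with a Cxcr6 or Itga1 UMI. These numbered 41, 186, 71 and 88. In 5 of the 7 NCD cells of the NK gate a Cxcr6 or Itga1 UMI was also present, and without such cells the NCD share was 0.0335%.

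**Figure D1:**
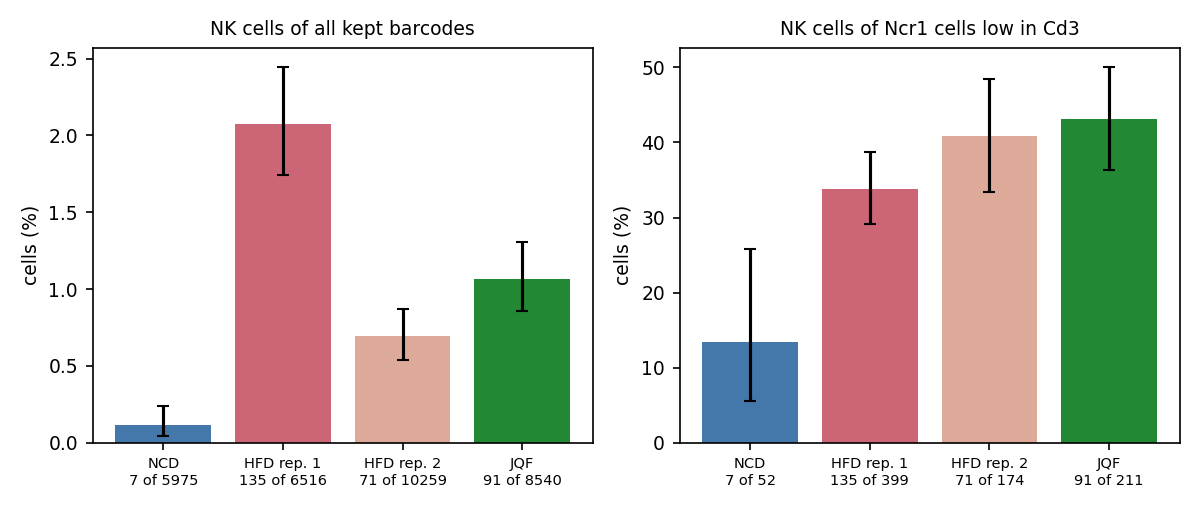
Bars give the percentage of NK cells among all kept barcodes (left) and among Ncr1-positive cells low in Cd3 (right) in the NCD, HFD replicate 1, HFD replicate 2 and JQF libraries, with exact 95% intervals. The left shares run from 0.117% in NCD to 2.07% in HFD replicate 1, and the right shares of HFD and JQF lie between 33.8% and 43.1%.

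The comparison of NK with ILC1-like cells asked what sets the 2 Ncr1-positive populations apart within a library. NK cells had higher Gzma and Prf1, higher genes of mature NK cells, and lower genes of ILC1. Of 7402 genes tested in 8 sums with the library as a block, 113 were higher in NK cells (1.53%) and 229 were lower (3.09%) by the quasi-likelihood test of edgeR at an adjusted p of 0.05. Without cells of other lineages, 177 of 6336 genes were higher (2.79%) and 317 lower (5.0%), and 318 of the 342 calls were made in both, 93.0% of the first and 64.4% of the second. Median differences of all genes were near 0, at -0.004 on the log2 scale. NK cells in which neither Eomes nor Klra8 was captured can fall in the ILC1-like gate, so the differences refer to gates.

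Gzma stood at 2622 CPM in NCD, 2694 and 3646 CPM in HFD and 2849 CPM in JQF NK cells, and at 155, 37.1, 345 and 1411 CPM in ILC1-like cells. The NK values did not overlap the ILC1-like values, which themselves spread widely. The log2 difference was 3.54 (SE 0.67, adjusted p = 0.014). It no longer passed without the NCD library (3.34, adjusted p = 0.079) or without HFD replicate 2 (3.66, adjusted p = 0.114), and adjusted p ranged from 3.87e-83 to 0.114 over 11 settings. Prf1, the pore-forming perforin, was at 397 to 569 CPM in NK cells and at 75.9 to 163 CPM in ILC1-like cells, a difference of 2.00 (SE 0.18). Of the 20 tested members of the killing list, 2 were higher (Gzma and Prf1), and 3 were lower. The lower ones were Gzmc, at 2.09 to 29.3 CPM in NK and 108 to 369 CPM in ILC1-like cells, Srgn, the granule proteoglycan, and Tnfsf10, which encodes the death ligand TRAIL. Gzmb overlapped between the 2 populations, with 310 to 609 CPM in NK cells and 93.9 to 961 CPM in ILC1-like cells.

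Genes of mature NK cells were higher in 8 of 16 tested members and lower in 0, with a median difference of 1.53, and without cells of other lineages in 9 of 15. Of the 8, Cma1 and S1pr5 had at most 3 UMIs over all ILC1-like sums and could pass the filter on low counts only through NK cells, so they are a description. Among the 14 members with more UMIs, 6 were higher. Itgam (CD11b), an integrin gained late in NK maturation, was at 64.1, 143, 149 and 97.4 CPM in NCD, HFD replicates 1 and 2 and JQF NK cells, and at 1.90 to 19.3 CPM in ILC1-like cells. S1pr5, the sphingosine 1-phosphate receptor used for exit from tissues, was at 26.8 to 56.1 CPM in NK cells, and was found in ILC1-like cells of HFD replicate 1 only, at 0.562 CPM. Cma1 was at 48.1 to 80.3 CPM in NK cells and at 0 in all 4 ILC1-like sums. Klrg1, an inhibitory receptor of mature cells, had 29.3 to 96.2 CPM against 0 to 7.30 CPM. The transcription factors Zeb2 (2.00, SE 0.17), Prdm1 (1.44, SE 0.24) and Irf8 (1.61, SE 0.20) were also higher, as was Lgals1 (1.69, SE 0.29). Tbx21 (T-bet), which both populations use, differed by -0.17 (SE 0.19, adjusted p = 0.807).

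Among the 8 genes with the largest higher values were the Ly49 genes Klra4, Klra7 and Klra3, whose relation to the gate gene Klra8 makes them uncertain. Klra4 was at 128 to 697 CPM in NK cells and at 0 in every ILC1-like sum. Sh2d1a, the adaptor SAP of SLAM family receptors, was at 24.1 to 176 CPM in NK cells and 3.65 to 9.0 CPM in ILC1-like cells (4.38, SE 0.32). Klf12, a transcription factor, and Rap1gap2, which regulates the GTPase Rap1, differed by 3.38 each (SE 0.29 and 0.31). Itga2 (CD49b), the classical surface marker of NK cells, was at 185 to 301 CPM against 29.7 to 54.8 CPM, and Itga4 at 622 to 1131 CPM against 133 to 322 CPM.

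Genes of ILC1 and transforming growth factor beta signalling were lower in 12 of 19 tested members and higher in 0, with a median of -1.58. With cells of other lineages left out, 12 of 18 were lower and 2 (Cd9 and Ccr2) higher. Il7r, the interleukin-7 receptor, was at 8.02, 105, 117 and 93.7 CPM in NK cells and at 277 to 562 CPM in ILC1-like cells. The inhibitory receptor Cd200r1 was at 8.37 to 73.3 CPM in NK cells against 169 to 461 CPM, and its relative Cd200r2 at 0 to 24.1 CPM against 45.5 to 140 CPM. Xcl1, a chemokine for cross-presenting dendritic cells, was at 534 to 1047 CPM against 1670 to 2515 CPM, and the co-stimulatory receptor Cd226 at 64.1 to 323 CPM against 483 to 976 CPM. The other genes with the largest lower values were Atp8a2, Zmat4, Gzmc, the lipid phosphatase Inpp4b, the metalloprotease Adam19 and Gm36723, with log2 differences of -4.38 to -2.89. Adam19 (-3.11) did not pass without HFD replicate 2 (adjusted p = 0.064, range over settings 5.14e-22 to 0.064). Type I interferon-stimulated genes were lower in 10 of 41 tested members and higher in 0, among them Isg15 and Ifit3.

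Receptor lists moved in both directions. Of all genes, 1.53% were higher and 3.09% lower in NK cells, and 2.79% and 5.0% without cells of other lineages. Activating receptors were higher in 3 of 17 members, among them Klra4 with no UMI in ILC1-like cells, and lower in 3, inhibitory receptors higher in 4 of 14 and lower in 5, and trafficking genes higher in 6 of 27, among them S1pr5, and lower in 4. Klra4 and S1pr5 could pass the filter only through NK cells and are a description, which leaves 2 of 16 activating receptors and 5 of 26 trafficking genes higher. The 4 higher inhibitory receptors, here and without cells of other lineages, include Klra7 and Klra3. Their relation to the gate gene Klra8 makes these 2 uncertain. The activating list also holds Klra9, a further Klra gene that is not taken here as an activating receptor. Counts of activating receptors in this text are those of the list as drawn up. Transcription factors were higher in 8 of 39, including Tcf7, Lef1 and Foxo1, and lower in 3 (Tox, Ikzf2 and Bcl11b). The immature NK list was higher in 2 of 14 (Tcf7 and Ctla2a) and lower in 7, of which Il7r and Xcl1 also belong to the ILC1 list. Immediate early and heat shock genes were lower in 14 of 39 members and higher in 0. With cells of other lineages left out, activating receptors were higher in 5 of 17 (Klra4 included) and lower in 3, inhibitory receptors higher in 4 of 14 and lower in 6, trafficking genes higher in 8 of 26 (S1pr5 included) and lower in 4, and transcription factors higher in 9 of 38 and lower in 6. In that fit the immature list was higher in 3 of 14 and lower in 8, the killing list higher in 4 of 20 and lower in 3, and type I interferon-stimulated (13 of 38) and immediate early genes (16 of 38) were lower, with 0 higher.

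**Figure D2:**
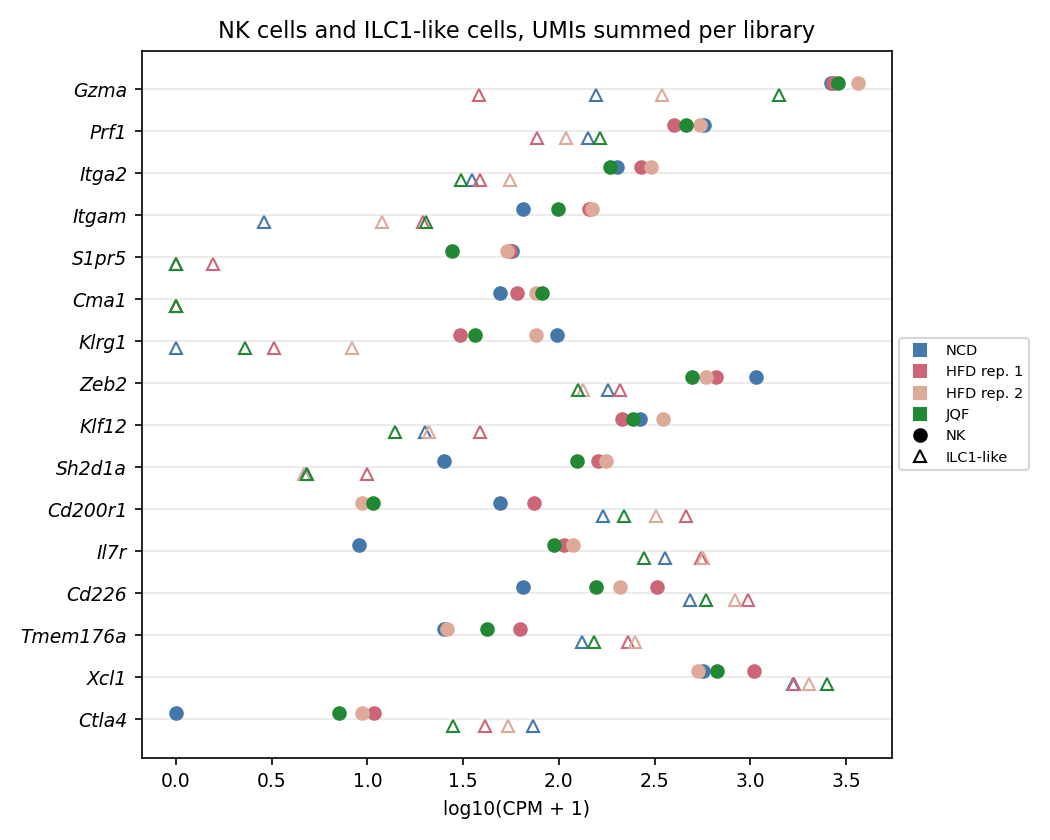
Levels of 16 genes as log10(CPM + 1) of UMIs summed over NK cells (filled circles) and ILC1-like cells (open triangles), 1 colour per library. Circles lie right of all triangles for Gzma, Prf1, Itga2, Itgam, S1pr5, Cma1, Klrg1, Zeb2, Klf12 and Sh2d1a, and left of them for Cd200r1, Il7r, Cd226, Tmem176a, Xcl1 and Ctla4.

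Ly49 receptor genes were each detected in a part of the NK gate, and these shares are a description with no background share measured. Klra8 (Ly49H), which belongs to the gate, was detected in 60%, 62.0% and 63.7% of the cells of HFD replicates 1 and 2 and JQF. Klra4 (Ly49D) was found in 51.9%, 40.8% and 44.0%, Klra7 in 34.1%, 35.2% and 34.1%, Klra9 in 34.8%, 33.8% and 35.2%, Klra3 in 29.6%, 25.4% and 28.6%, and Klra1 in 10.4%, 11.3% and 12.1%. The order of these genes by share was the same in the 3 libraries except that Klra7 and Klra9 changed places, and the 95% exact intervals of each gene overlapped between libraries. At least 2 Ly49 genes were found in 65.9%, 73.2% and 69.2% of cells, and in 5 of the 7 NCD cells. Klra4 was found in cells with and without a Klra8 UMI at 72.8% and 20.4% in HFD replicate 1, 54.5% and 18.5% in HFD replicate 2, and 55.2% and 24.2% in JQF. Itgam was found at 63.0% and 27.8%, 54.5% and 29.6%, and 44.8% and 27.3%. Klrg1 was found at 24.7% and 5.56%, 25% and 11.1%, and 22.4% and 12.1%. Klra9, Klra1 and Itga2 kept this order in the 3 libraries too, with Klra9 at 48.1% and 14.8%, 38.6% and 25.9%, and 43.1% and 21.2%. Some other genes did not keep it in every library. Klra7 was found at 31.0% and 39.4% in JQF and Klra3 at 20.5% and 33.3% in HFD replicate 2, and Gzma at 87.9% in both kinds of JQF cell. No test was made of these shares, which come from unthinned cells, in which deeper cells show more genes, and the part of depth and of reads shared among Klra genes was not tested. Klra8 is a gate gene, so cells without its UMI entered the gate through Eomes alone. The part of this in the shares was not tested either.

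The comparison of JQF with HFD asked which NK cell genes differed after the formula. Activation-linked genes were higher in the JQF library. They were the transcription factors Junb, Jun, Fosb and Nr4a2, the early activation antigen Cd69 and the chemokine Ccl4. Of 9055 genes tested, 40 were higher in JQF (0.442%) and 1 was lower (0.011%) by edgeR's quasi-likelihood test. Granzymes, perforin and NK receptors did not pass, but at these shares lists of their size would hold few or no calls, so no contrast is drawn. Without cells of other lineages, 277 of 7578 genes were higher (3.66%) and 54 lower (0.713%), but only 14 genes were called both times, 34.1% of the first set and 4.23% of the second. The fit without those cells had infinite prior degrees of freedom, which means that edgeR gave every gene of the same level the same spread. Without the NCD library, 80 genes were called. In 31 of the 40 higher calls at least 50% of the JQF UMIs lay in 3 cells, and the genes named here are those below that limit.

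Junb (chr8:84974484-84978718, GRCm38, minus strand), an AP-1 subunit, stood at 2229 CPM in NCD, 587 and 632 CPM in HFD and 1787 CPM in JQF. Jun, its relative, stood at 1556, 526, 465 and 1476 CPM in the same order. Fosb, a partner of Jun proteins, was at 521, 297, 379 and 1047 CPM. JQF was above both HFD libraries for each of these AP-1 genes, which the naming rule required. The log2 differences were 1.63 (SE 0.19, adjusted p = 0.025), 1.64 (SE 0.20, adjusted p = 0.030) and 1.71 (SE 0.23, adjusted p = 0.040). Without cells of other lineages the Jun level in JQF was 913 CPM and its difference 1.22.

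Nr4a2 (chr2:57106830-57124003, GRCm38, minus strand), an orphan nuclear receptor induced by receptor signalling, was at 617, 88.8, 92.1 and 293 CPM in NCD, HFD replicates 1 and 2 and JQF, a difference of 1.77 (SE 0.25, adjusted p = 0.043). Cd69, a lectin that holds lymphocytes in tissue, was at 208, 92.1, 109 and 323 CPM (1.77, SE 0.26, adjusted p = 0.049). Ccl4, a chemokine that NK cells release on activation, was at 3536, 1332, 1601 and 3397 CPM (1.29, SE 0.19, adjusted p = 0.048). The HFD replicates lay close together for these genes, which a call favours because the HFD pair alone gives the residual spread. JQF lay above both, as the naming rule required, and so did NCD, which that rule did not use. Dennd4a, an exchange factor for Rab GTPases, was at 5941, 1035, 1392 and 3099 CPM (1.43). Jmy, an actin nucleator and p53 cofactor, was at 208, 48.1, 44.0 and 190 CPM (2.10), and Lmna, which encodes nuclear lamin A and C, at 225, 44.0, 54.4 and 187 CPM (2.02). The naming rule asked for both HFD libraries on the same side of JQF. The sign of the 9 differences against either HFD library alone was therefore fixed beforehand and is no support. Of 17 settings with a test, the one reported here included, Junb, Jun and Ccl4 were called in 12 each, Nr4a2, Jmy and Dennd4a in 11, Fosb and Lmna in 10 and Cd69 in 9. None of the 9 passed in edgeR with RLE factors, with library totals alone, with free RNA subtracted, at 10% mitochondrial UMIs or with the Eomes and Klra8 condition dropped. Those fits had prior degrees of freedom of 2.92 to 5.03, against 6.37 in the fit reported here. The lowest log2 differences over all settings were 1.87 for Jmy, 1.83 for Lmna, 1.55 for Nr4a2, 1.32 for Junb and 1.29 for Fosb. They were 1.18 for Dennd4a, 1.17 for Ccl4 and 1.05 for both Jun and Cd69.

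The immediate early and heat shock list had 4 of 39 members higher (Fosb, Jun, Junb and Cd69) and 0 lower, with a median of 0.87 against -0.03 over all genes. Without cells of other lineages 23 of 38 were higher and 0 lower, with a median of 1.06. The number called varied from 0 to 24 over the settings. It was 0 with size factors of the RLE kind, where 25 members had an unadjusted p under 0.05, with library totals alone (24), with free RNA subtracted (25), at a mitochondrial limit of 10% (27) and without the Eomes and Klra8 condition (30), and 2 with DESeq2 (11). Fos itself stood at 1788, 626, 940 and 2191 CPM with a difference of 1.57 (SE 0.25, adjusted p = 0.061). In single cells thinned to 2000 UMIs, Fos was detected in 38.3% and 51.5% of HFD cells (intervals 30.1 to 47.2 and 39.0 to 63.8) and 76.9% of JQF cells (66.9 to 85.1). The unthinned shares were 44.4%, 69.0% and 86.8%. Cd69 was found in 11.3% and 10.3% of HFD and 39.6% of JQF cells after thinning, and in 34.1%, 28.2% and 74.7% without it. Ccl4 was found in 36.8% and 54.4% of HFD and 75.8% of JQF cells, against 12.2% to 20.4% of B cells of those libraries, and in 51.9%, 67.6% and 81.3% of unthinned NK cells. B cells transcribe Fos and Cd69 themselves and give no background for these 2 genes.

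**Figure D3:**
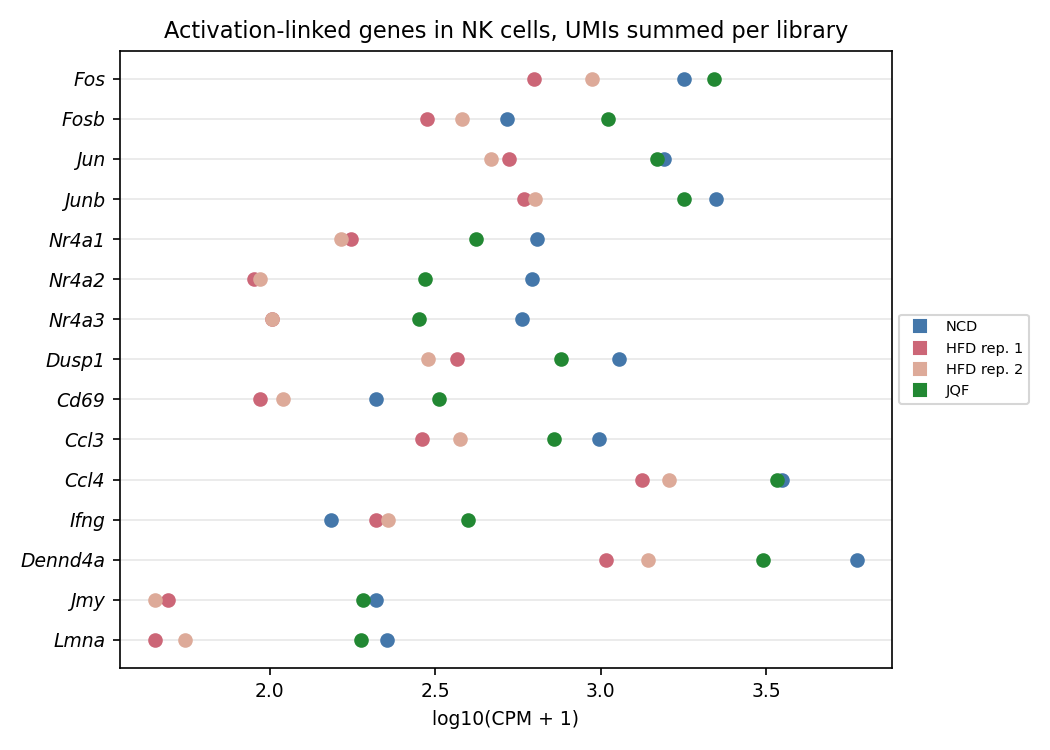
Levels of 15 activation-linked genes in NK cells as log10(CPM + 1) of UMIs summed per library, 1 point per library. The JQF point lies right of both HFD points for each gene, and the NCD point, from 7 cells, lies right of both HFD points for all but Ifng. The 9 named genes among them had to have JQF on the same side of both HFD libraries. The others were chosen after their values were seen, so the order of the points is a description. The share of all genes with this order was not measured.

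The list moved in other lymphocytes of the same libraries too. Its UMIs per cell, after thinning to 2000 UMIs, had medians in NK cells of 81 for NCD, 21 and 25 for the HFD pair and 53 for JQF. ILC1-like cells had medians of 91, 35, 40 and 76, T cells of 60, 42, 48 and 68, and B cells of 64.5, 28, 54 and 66. In each of the 4 populations both HFD medians were below those of JQF and NCD. The middle 50% of NK cells fell between 14 and 39 UMIs in HFD replicate 1, between 17 and 44.25 in HFD replicate 2 and between 37.5 and 68.5 in JQF. The part of cell handling in these levels was not tested, and with 1 JQF library it cannot be told apart from the formula.

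**Figure D4:**
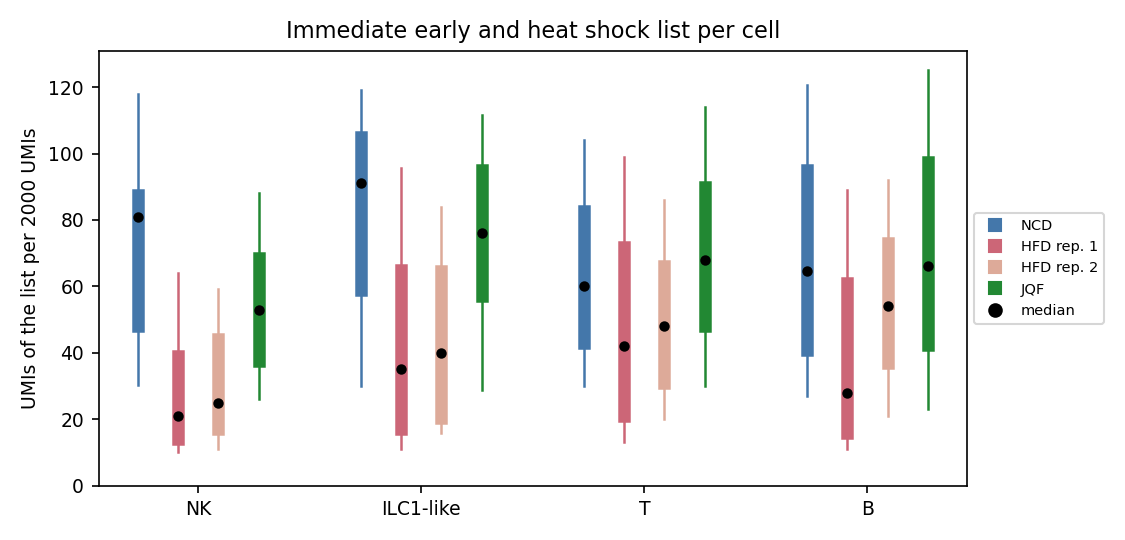
UMIs of the immediate early and heat shock list per 2000 UMIs in single NK, ILC1-like, T and B cells of each library. Points are medians, thick bars hold the middle 50% of cells and thin lines reach from the 10th to the 90th percentile, and the HFD medians lie below the NCD and JQF medians in every population.

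Other NK gene lists had 0 or 1 members called between JQF and HFD over all gated cells, and some had more without cells of other lineages. Of all genes, 0.442% were higher and 0.011% lower over all gated cells, and 3.66% and 0.713% without cells of other lineages. At these shares 0 or 1 calls in a list says little of its members. The killing list had 0 of 22 members called by edgeR, with 1 at an unadjusted p under 0.05 and 0 called by DESeq2, and 1 (Lamp2, higher) called by edgeR without cells of other lineages. Gzma was at 2694 and 3646 CPM in HFD and 2849 CPM in JQF (-0.08, SE 0.22, adjusted p = 0.963), Prf1 at 397, 546 and 462 CPM (0.05, SE 0.27), and Gzmb at 340, 329 and 310 CPM (-0.03, SE 0.24). Of the cytokine list 1 of 15 members was higher (Ccl4), and without cells of other lineages 5 of 12 were (Ifng, Tnf, Ccl3, Ccl4 and Tgfb1). Ifng, the interferon-gamma gene, was at 208 and 226 CPM in HFD and 397 CPM in JQF (0.95, SE 0.24, adjusted p = 0.214), and Ccl3 at 288, 375 and 723 CPM (1.21, SE 0.24, adjusted p = 0.104). Activating receptors had 0 of 18 and inhibitory receptors 0 of 16 members called by edgeR, with medians of -0.39 and -0.38, 2 and 1 members at an unadjusted p under 0.05 and 0 called by DESeq2. The difference was above 0 in 3 of the 18 and 4 of the 16, against 4266 of all 9055 genes. Klra8, a gate gene, was at 765 and 555 CPM in HFD and 483 CPM in JQF, and Ncr1, the gene of the receptor NKp46, at 627, 622 and 392 CPM. Type I interferon-stimulated genes had 0 of 46 members called, interferon-gamma targets and MHC class I 0 of 33, glycolysis 0 of 22 and the lipid list 0 of 32 by edgeR, and 0 in each by DESeq2. At an unadjusted p under 0.05 these 4 lists had 12, 4, 1 and 5 members, while 856 of all 9055 genes did. With cells of other lineages left out, 3 of 39 type I interferon-stimulated genes were higher and 1 lower, and 1 of 31 interferon-gamma and MHC class I genes was higher. In the same fit 10 of 38 transcription factors, Nr4a2 among them, 4 of 20 ILC1-linked genes and 1 of 22 lipid genes were higher. So were 3 of 27 cytokine receptor and relay genes, 3 of 28 trafficking genes and 2 of 15 immature NK genes. The glucocorticoid-linked list had 4 of 12 members higher and 1 lower (Txnip), against 0 of 13 called over all gated cells. Socs3, a feedback inhibitor of cytokine signalling and chosen after its values were seen, was at 24.4 and 18.8 CPM in HFD and 116 CPM in JQF (2.43, SE 0.34, adjusted p = 0.042), with 54.7% of its JQF UMIs in 3 cells.

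The cell cycle list had 1 of 25 members lower, and 13 without cells of other lineages. Of these 13, 3 had 0 JQF UMIs and 5 had 1 to 3, and they passed the filter on low counts only through the other libraries, so these 8 and the 1 gene called over all gated cells are a description. That gene was Ube2c, a mitotic ubiquitin-conjugating enzyme named after its values were seen, with 75 and 71 UMIs in HFD and 0 in JQF, which allows up to 3.65 CPM, and 71.2% of its HFD UMIs lay in 3 cells. Mki67, the proliferation marker Ki-67, was at 49.7 and 213 CPM in HFD and 2.43 CPM in JQF, with 61.3% of its HFD UMIs in 3 cells. Mki67 or Top2a was detected after thinning in 5.26% (2.14 to 10.5) and 5.88% (1.63 to 14.4) of HFD cells and in 2.20% (0.267 to 7.71) of JQF cells. Without thinning the shares were 9.63%, 12.7% and 8.79%. The intervals cover counting error only, and with 1 JQF library the shares were not tested.

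To ask whether NK cells differed from T cells of the same libraries, the change from HFD to JQF was compared between them in 1 fit with an interaction term. It called 302 of 15061 genes (2.01%), and 107 of 13414 (0.798%) without cells of other lineages, 83 of them in both. The prior degrees of freedom were infinite in this fit too. Nr4a2 rose in NK cells and lay at 245 and 515 CPM in HFD and 187 CPM in JQF T cells, an interaction of 2.60 (adjusted p = 3.61e-11). Ccl4 in T cells was at 1669, 2402 and 1070 CPM (2.15, adjusted p = 9.09e-10) and Ccl3 at 301, 624 and 111 CPM (3.12, adjusted p = 7.79e-18). All 3 interactions were called in 7 of 7 settings. For Gzma (1.81), Prf1 (1.5) and Gzmb (1.40) the NK levels stayed within the HFD range or near it, while T cell levels were lower in JQF, with Gzma at 172 and 874 CPM in HFD and 103 CPM in JQF T cells. Each was called in 6 of 7 settings. By contrast, the interaction was not called for Fos (0.62, adjusted p = 0.554), Junb (0.39, adjusted p = 0.994), Jun (0.40, adjusted p = 0.985) or Cd69 (1.06, adjusted p = 0.072, called in 1 of 7 settings). A sum over cells cannot tell a change in every T cell from a change in the mix of T cell subsets.

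**Figure D5:**
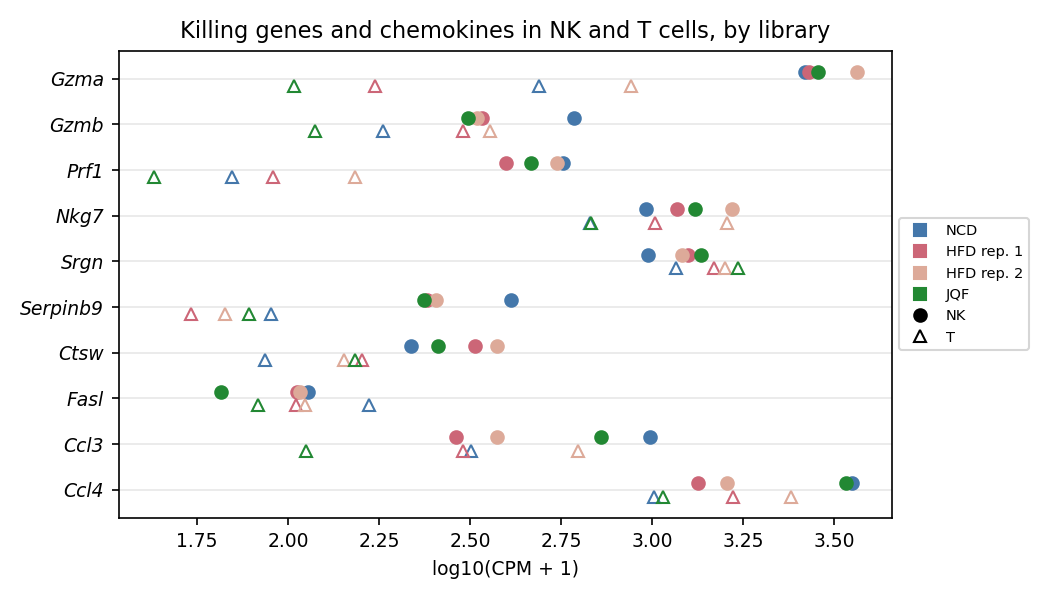
Levels of 8 killing genes and 2 chemokines as log10(CPM + 1) of UMIs summed over NK cells (filled circles) and T cells (open triangles), 1 colour per library. JQF has the lowest T cell triangle for Gzma, Gzmb, Prf1 and Ccl3, whereas the JQF circles lie above both HFD circles for Ccl3 and Ccl4.

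The comparison of HFD with NCD rests on 7 NCD cells, which limits every value. Of these 7, 2 had no Cxcr6 or Itga1 UMI, against 114 of 135 and 68 of 71 cells in HFD replicates 1 and 2. Some genes given as higher in HFD, among them Klra4, Tcf7 and Sh2d1a, were also higher in NK than in ILC1-like cells. The part of ILC1-like cells within the NCD gate in these differences was not tested. Of 9055 genes, 245 were higher in HFD (2.71%) and 329 lower (3.63%). Without cells of other lineages, 291 of 7578 were higher (3.84%) and 354 lower (4.67%), and 295 genes were called both times, 51.4% of the first set and 45.7% of the second. The median of all genes was 0.25 on the log2 scale and 0.39 without those cells, so differences near these values are no larger than the shift of the whole table. In each of the 329 lower calls at least 50% of the NCD UMIs lay in 3 of the 7 cells, and no gene that fell met the limit for being named. With 7 cells, 1 of which held 44.5% of the UMIs, that limit could hardly be met, so the lack of named falls says nothing of the falls themselves. Gbp2, an interferon-induced GTPase, was at 337 CPM in all 7 cells and at 14.5 CPM in the 6 left without the cell that held endothelial markers, against 20.4 and 33.5 CPM in HFD. Gbp2 was chosen after its values were seen.

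Several NK receptors and lymphocyte genes were higher in HFD. Klra4 had 16 UMIs in NCD, all in 1 cell (128 CPM), and 697 and 584 CPM in HFD (2.40, SE 0.33, adjusted p = 0.011). Klrc2, the activating receptor NKG2C, had 11 UMIs (88.2 CPM) against 336 and 356 CPM (2.05, SE 0.35, adjusted p = 0.019). Tcf7, a transcription factor of early NK cells, had 5 UMIs (40.1 CPM) against 244 and 213 CPM (2.60, SE 0.44, adjusted p = 0.019). Without cells of other lineages these 3 differences were 1.76, 1.54 and 2.55. Tcf7 had at most 3 NCD UMIs there, so its value of 2.55 is a description. H2-Q7, a non-classical MHC class I gene, was at 321 CPM in NCD and 936 and 856 CPM in HFD (1.57, SE 0.26, adjusted p = 0.018). Gapdh, a glycolytic enzyme, was at 144 CPM against 589 and 519 CPM (2.02, SE 0.31). Further named genes with 4 or more NCD UMIs that rose were Klrd1 (1.70), Klre1 (1.71), Cd226 (2.14), Tyrobp (1.12), Rab27a (2.08), Ltb (1.75), Il18r1 (1.46), Ly6e (1.41), Ikzf3 (1.74), Cxcr4 (2.04), Itgb2 (1.80), Epsti1 (1.34), Fkbp5 (3.11) and Hmgb2 (2.32). Of these, 4 no longer passed without cells of other lineages, Tyrobp (0.48), Il18r1 (0.71), Ltb (1.07) and Rab27a (1.56). Among those that still passed, Klrd1 (1.17), Klre1 (1.09) and Ikzf3 (1.18) were smaller in that fit. Cd226 (2.72) and Ly6e (1.59) were larger. Cd226 and Cxcr4 had at most 3 NCD UMIs in that fit and passed the filter on low counts only through the other libraries. Their values there are a description. The median of all genes was 0.39 there. The 14 calls depended on other settings too. Of 16 settings with a test, the one reported here included, they were made in 3 for Cxcr4, 4 for Rab27a and Il18r1, 5 for Cd226, Tyrobp and Ikzf3, and 6 to 12 for the others. With free RNA subtracted, 36 of the 38 genes named in this comparison no longer passed, and with the Eomes and Klra8 condition dropped 38 of 38 did not. In both settings all 38 differences kept their direction. The prior degrees of freedom were 4.15 and 2.92 there, against 6.37 in the fit reported here. Ikzf3 turned to -0.25 with the Eomes and Klra8 condition dropped and cells of other lineages left out. The gate genes Ncr1 and Klra8, used by the rule and given as a description, were at 225 and 208 CPM in NCD, at 627 and 622 CPM (Ncr1) and 765 and 555 CPM (Klra8) in HFD.

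Where NCD had 1 to 3 UMIs, folds come with a counting interval. Ccr2, a chemokine receptor of inflammatory recruitment, was 16.6-fold higher (4.58 to 138), Aff3 17.8-fold (6.06 to 86.4), Sh2d1a 6.80-fold (2.30 to 33.2), Il7r 13.5-fold (2.40 to 537), Cdyl2 20.7-fold (3.69 to 820), Tnf 12.9-fold (2.28 to 511), Eno1 17.7-fold (3.15 to 702) and Pgam1 12.6-fold (2.23 to 500). Cdyl2 and Il7r each rest on 1 NCD UMI, and with the Eomes and Klra8 condition dropped and cells of other lineages left out they turned to -0.10 and -0.027 on the log2 scale. With 0 NCD UMIs and a floor of 3 UMIs for that library (24.1 CPM), Fgf13 was at least 7.83-fold higher in HFD, Angpt1 6.92-fold, Immp2l 5.27-fold, Kcnip3 5.24-fold, Batf 3.27-fold, Cetn3 3.19-fold, Gm16341 3.12-fold, Sirt7 3.07-fold, Xylt1 2.93-fold and Unc13d 2.02-fold. These 10 genes could pass the filter on low counts only through the libraries where they were detected, so their folds are a description. Batf turned to -0.18 under that same change of gate. Unc13d and Pgam1 no longer passed without cells of other lineages. The folds, intervals and floor here count all NCD UMIs, 44.5% of which lay in the cell with endothelial markers. Over the 69164 UMIs of the other 6 cells, 3 UMIs are 43.4 CPM. The 10 bounds would be lower there, so they do not hold for those cells alone.

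Of all genes, 2.71% were higher in HFD and 3.63% lower, and 3.84% and 4.67% without cells of other lineages. At these shares 0 or 1 calls in a list says little of its members. By list, activating receptors were higher in 4 of 18 members and lower in 0, the immature NK list higher in 5 of 15 and lower in 1, trafficking genes higher in 5 of 29 and lower in 3, and glycolysis genes higher in 3 of 22 and lower in 0. The mature NK list was higher in 0 of 17 and lower in 1 (Cx3cr1), and without cells of other lineages lower in 8. Killing genes were higher in 2 of 22 (Rab27a, and Unc13d with 0 NCD UMIs) and lower in 1 (Lamp2), and without those cells higher in 0 and lower in 5. Type I interferon-stimulated genes were higher in 1 of 46 and lower in 2, and without those cells higher in 7 of 39 and lower in 0. Interferon-gamma targets and MHC class I were higher in 1 of 33 and lower in 3, and without those cells higher in 7 of 31 and lower in 0. Transcription factors were higher in 4 of 39 and lower in 5, and without those cells higher in 4 of 38 and lower in 15. Cell cycle genes were higher in 1 of 25 and without those cells in 8 of 25. Higher calls at 3 or fewer NCD UMIs passed the filter on low counts only through the other libraries, and are a description. Over all gated cells these included Batf (0 UMIs) and Aff3 among the 4 transcription factors, Il7r in the immature list, Ccr2 among trafficking genes and Pgam1 and Eno1 among glycolysis genes. When cells of other lineages were left out, they included 6 of the 7 type I interferon-stimulated genes and 5 of the 8 cell cycle genes, all at 0 NCD UMIs, a further cell cycle gene (Stmn1), 2 of the 7 interferon-gamma and MHC class I genes and 3 of the 4 transcription factors (Tcf7, Batf and Aff3). Immediate early and heat shock genes were lower in 15 of 39 and higher in 0, with a median of -1.12, and without those cells lower in 27 of 38. DESeq2 called 7 of the 39 members. With the Eomes and Klra8 condition dropped, edgeR called 0 of all genes, so none of this list. The change from NCD to HFD differed from that in T cells for 216 of 15061 genes (1.43%), and for 112 of 13414 (0.835%) without cells of other lineages, with 76 called both times. This comparison and that of JQF with HFD share the HFD libraries, so their values are not independent of each other.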

How the data were processed

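The authors deposited, per library, whole UMI counts per gene and barcode, unnormalized, from a 10x Genomics 3' v3.1 workflow aligned to mm10. The submitters' processing notes name Cell Ranger 6.0.1 and Seurat 4.0.3, whereas the file headers name version 7.0.0 (filtered) and 4 (raw), so whether introns were counted is not settled. UMIs of gated cells were summed per library and tested with edgeR 4.0.16 (R 4.3.3; quasi-likelihood, TMM, filterByExpr, Benjamini-Hochberg at 0.05). The group fits and the interaction fits each had 1 residual degree of freedom, from the HFD pair. NCD and JQF were therefore assumed to vary like HFD, and p-values measure only the spread between these samples. Because NCD held few UMIs, the filter let genes with very few NCD UMIs pass. SE is the absolute log2 difference divided by the square root of F. DESeq2 1.42.0 was an alternative, as was subtracting free RNA, taken from barcodes outside the called set. Its share was estimated from hepatocyte UMIs in the NK sums. It was 1.70% in NCD, 2.65% and 1.43% in HFD replicates 1 and 2 and 6.33% in JQF. In JQF 743 of those 970 UMIs lay in 1 cell. Doublets stayed in, and in an alternative the highest Scrublet scores (scanpy 1.11.5) were removed at 0.8% per 1000 barcodes. Thinning used seed 1 and left out cells below 2000 UMIs. Intervals and floors cover counting error only.

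The members, the 18 gene lists and the tests were chosen with earlier results of these data known. Named genes were, per condition comparison, the 10 largest called changes each way with a mean of at least 50 CPM, the same side in both HFD libraries and under 50% of the higher group's UMIs in 3 cells, then up to 4 per list at 20 CPM, and for ILC1-like cells the 8 largest each way with 1 sign in all 4 libraries. Some named genes are not reported here. List members named beside these were read after their values were seen. Scripts were tested on simulated data.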

Additional observations from a re-analysis of the deposited data

Results flagged for a closer look

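The change from HFD to JQF in NK cells differed from that in T cells for Nr4a2 (2.60) and Ccl4 (2.15), by the interaction term of edgeR. The change from NCD to HFD differed from that in T cells for further named genes. The fitted log2 interactions were 4.69 for Aff3, 4.16 for Cdyl2, 3.33 for Ccr2, 2.66 for Klre1, 2.20 for Fkbp5, 2.14 for Cxcr4, 2.07 for Klrc2, 1.91 for Cd226, 1.72 for Ikzf3, 1.70 for Hmgb2 and 1.52 for Klrd1. Aff3, Cdyl2 and Ccr2 had 3, 1 and 2 UMIs in NCD NK cells, and Cdyl2 had 0 without cells of other lineages, so the fitted values of these 3 genes are given as a description only. A further 6 genes had 0 UMIs in NCD NK cells and passed the filter on low counts only through other libraries, so their values are also only a description. With 3 UMIs in place of 0 the differences were at least 2.74 for Immp2l, 2.50 for Fgf13, 1.93 for Batf, 1.91 for Gm16341, 1.66 for Xylt1 and 1.19 for Cetn3. These bounds count all NCD NK UMIs, 44.5% of which lay in the cell with endothelial markers. When cells of other lineages were left out, the interaction no longer passed for Cetn3, Xylt1, Klrd1, Ikzf3, Cxcr4, Fkbp5 and Hmgb2. No group had 4 or more libraries, so no search for outlying libraries was made.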

How the results depend on the processing

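Alternatives that drop the Eomes and Klra8 condition, leave out cells of other lineages, leave out NCD or ask for 10 UMIs were chosen after seeing the data. The count of genes that differed between HFD and NCD, 574, became 237 with RLE size factors, 373 with library totals, 1436 without a gene filter, 162 with DESeq2, 185 after thinning, 63 with free RNA subtracted, 171 without any Cd3 UMI, 379 without Cxcr6 or Itga1 UMIs and 287 with at least 10 UMIs in NCD or each HFD library. Without the Eomes and Klra8 condition it was 0 in edgeR (3012 at an unadjusted p under 0.05), and 1634 when cells of other lineages were also left out. For JQF against HFD, 41 became 4 with RLE factors, 4 with library totals, 4 at 10% mitochondrial UMIs, 8 with DESeq2, 0 with free RNA subtracted (812 unadjusted), 500 without a filter, 127 after thinning, 293 without predicted doublets, 163 without Cxcr6 or Itga1 UMIs, 80 without NCD, 331 without cells of other lineages and 320 without both. Without the Eomes and Klra8 condition it was 0 (902 unadjusted), or 375 with cells of other lineages left out too. For NK against ILC1-like cells, 342 became 702 without a filter and 140 to 398 when each library was left out in turn. The interaction counts were 46 (DESeq2), 92 (thinned) and 112 (cells of other lineages left out) in place of 216, and 14, 35 and 107 in place of 302. The NK shares with Eomes itself required were 1.63%, 0.507% and 0.843% in HFD replicate 1, HFD replicate 2 and JQF. With the Eomes and Klra8 condition dropped they were 0.870%, 6.12%, 1.70% and 2.47% in NCD, HFD replicates 1 and 2 and JQF. The NCD share was 0.0335% without Cxcr6 or Itga1 UMIs and 0.297% of Ptprc barcodes. With the condition dropped and cells of other lineages left out, 4 named differences between HFD and NCD turned, Cdyl2 (-0.10), Il7r (-0.027), Batf (-0.18) and Ikzf3 (-0.25). Over the named genes, markers left aside, and the settings with a test, 290 values for HFD against NCD kept their direction and stayed past the threshold, 270 no longer passed and 4 turned. For JQF against HFD 89 kept both and 55 no longer passed, and for NK against ILC1-like cells 153 and 3. The causes were not tested. Leaving out 1 HFD library leaves no residual degree of freedom in the group fits, so only fold changes were given. No paired analysis was possible because the groups compared share fewer than 2 replicate numbers. The depth of 7 NCD cells puts the floor for a gene with no NCD UMI at 24.1 CPM. For the 6 cells left without the one that held endothelial markers, the same 3 UMIs are 43.4 CPM.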
